A study of Mus musculus with 16 samples.

Results

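Complex I (NADH:ubiquinone oxidoreductase) takes electrons from NADH, passes them along flavin and iron-sulphur clusters to ubiquinone, and pumps protons across the inner mitochondrial membrane. Its core subunits carry out this chemistry, its supernumerary subunits surround and stabilise the core, and assembly factors bind intermediates while the enzyme is built and are absent from the finished complex. Skeletal muscle is rich in the complex, and endurance training is known to raise the mitochondrial content of muscle. The genes described here are the 45 of 55487 rows of the expression table whose symbol starts with Nduf. Another 8 Nduf rows were left out: Ndufa8, Ndufb7, Ndufb10 and Ndufs5, whose products are known substrates of the CHCHD4 import pathway, and rows named as pseudogenes. The 45 comprise 7 nuclear core subunits, 26 rows named as supernumerary subunits, 8 Ndufaf assembly factors, and 4 genes counted apart as paralogues or reassigned proteins (Ndufa4, Ndufa4l2, Ndufb4c and Ndufs6b).

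The libraries were made from total RNA of skeletal muscle of mice, 4 libraries in each of 4 groups: wild type (WT) without training, WT after treadmill training, CHCHD4 transgenic (Tg) without training, and CHCHD4 Tg after treadmill training. CHCHD4 is the receptor of the disulfide relay that imports cysteine-rich proteins into the mitochondrial intermembrane space. The muscle sampled, the strain, the age, the promoter of the transgene and the length of training were not given in the sources used here. Nor is it said that each library came from a different animal, and p-values therefore cover only the spread between these libraries. A bulk library cannot tell fewer cells of a type from less RNA per cell.

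Library totals ranged from 40888325 to 61703724 expected counts. Levels are given as CPM, the counts scaled to a common library total after TMM normalisation. Chchd4 itself was at 6.88 to 8.98 CPM in the 8 WT libraries and at 18.1 to 22.2 CPM in the 8 Tg libraries, with no overlap. All 8 fast-fibre markers looked at were present, with a summed level of 54607 to 86745 CPM, against 44.1 to 172 CPM for 7 slow-fibre markers. One library, WT untrained replicate 2, stood apart in the genes described here, and the comparisons of untrained WT are given with and without it. It was singled out by low levels of these same genes (lowest of 16 libraries in 40 of 43 tested). Leaving it out therefore raises untrained WT for most of them by construction. Albumin (Alb), a liver gene, was above 10 CPM in 3 libraries (WT untrained replicate 2, WT trained replicate 4 and Tg untrained replicate 2). It was the only 1 of 5 liver markers looked at with enough counts to be tested. The slow myosin Myh7 was above 10 CPM in 4 (WT untrained replicate 2, WT trained replicate 3, Tg untrained replicates 2 and 3). The summed level of the 7 slow-fibre markers in WT untrained replicate 2 was 54.9 CPM, within the 44.1 to 64.7 CPM of its group.

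Of the 45 genes, 43 had enough counts to be tested among 17490 genes: 7 core and 25 supernumerary subunits (32 subunits in all), 8 Ndufaf factors and 3 of the paralogues or reassigned genes. The 2 left untested, Ndufa11b and Ndufs6b, are annotated as processed pseudogenes and never had more than 7.12 counts in a library. Ndufb4c, a processed pseudogene on chromosome 15 (mm10, 73809507 to 73809896, minus strand), was tested but cannot be told from its parent. Its 390 bases are identical to the whole coding sequence of Ndufb4, a supernumerary subunit of the membrane arm encoded on chromosome 16 (37647170 to 37654453, minus strand). The first 150 bases of the coding sequence that both share, from the GENCODE M21 transcripts, are shown with the start codon in capitals, because reads from it match both rows equally well:
Ndufb4 and Ndufb4c: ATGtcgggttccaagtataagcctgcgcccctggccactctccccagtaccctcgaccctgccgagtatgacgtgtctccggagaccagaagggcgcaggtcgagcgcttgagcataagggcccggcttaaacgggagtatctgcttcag
Ndufs6b differs from the Ndufs6 transcript at 12 of 348 bases and Ndufa11b from Ndufa11 at 22 of 424. Ndufb4c received more of the shared reads than its parent, with a mean of 47.6 against 24.4 CPM, so the split of reads between them is uncertain. In WT untrained replicate 1, for example, Ndufb4 was at 26.5 CPM and Ndufb4c at 49.7 CPM.

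Compared per length of the principal transcript, subunits and assembly factors lay on different scales. The 32 subunits had a median level of 72.6 CPM per kb (range 11.45 to 264), and the 8 Ndufaf factors a median of 5.87 CPM per kb (range 3.53 to 12.95). The highest level per kb was that of Ndufb9, a membrane-arm subunit (264 CPM per kb), followed among subunits by Ndufb8 of the same arm (183). Among the core subunits, Ndufs8, which holds iron-sulphur clusters, was the lowest at 51.1 CPM per kb, and Ndufv1, which binds NADH and the flavin, was at 97.6 CPM per kb. Ndufaf1, a factor of the membrane-arm intermediates, was the highest of the assembly factors (12.95 CPM per kb). It exceeded 1 subunit, Ndufb2, at 11.45 CPM per kb over a transcript of 4371 bases. Ndufab1, the mitochondrial acyl carrier protein, was also low per kb (13.3), with a transcript of 3479 bases; a shorter transcript in use would raise both values. Ndufa4l2, a paralogue known to be induced by hypoxia, was the lowest of the 43 tested genes (2.43 CPM per kb), while Ndufa4, now assigned to cytochrome c oxidase, ranked second at 243 CPM per kb.

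**Figure D1:**
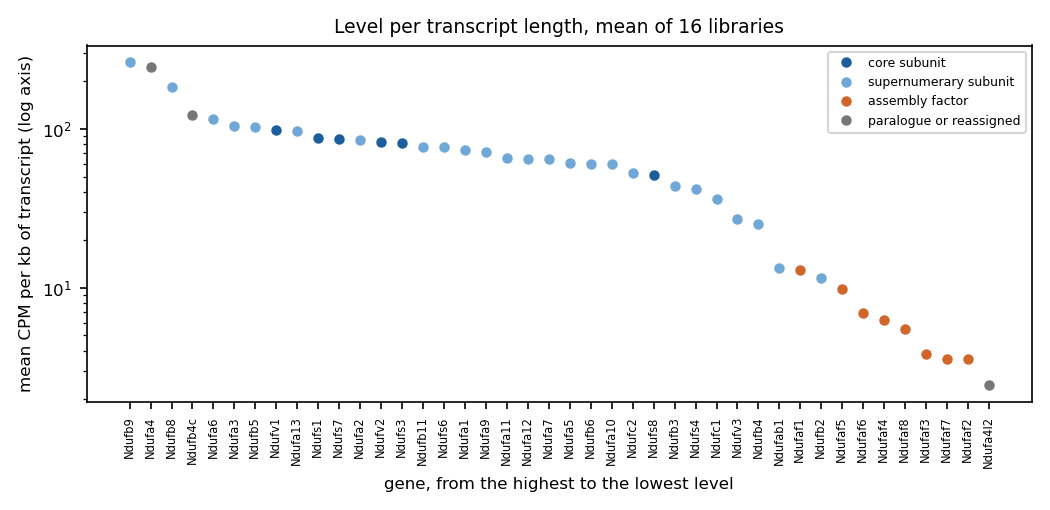
Mean level over 16 libraries of 42 tested complex I genes, in CPM per kb of its principal transcript on a log axis, ordered from highest to lowest and coloured by class. The Ndufaf factors (3.53 to 12.95 CPM per kb) lie below the subunits, with Ndufb2 at 11.45 CPM per kb the exception.

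The largest movement of these genes across the 16 libraries was within a group. In WT untrained replicate 2 each of the 32 subunits had its lowest level of all 16 libraries, as had 5 of the 8 Ndufaf factors, against 20.1% of all genes tested. Relative to the mean of the other 3 WT untrained libraries, the median log2 difference there was -0.89 for the 7 core subunits, -0.72 for the 25 supernumerary subunits, -0.54 for the Ndufaf factors and 0.013 for all genes. Ndufs8 was lowest relative to those libraries, 2.18-fold below them: it was at 24.3 CPM in replicate 2 and at 54.0, 51.6 and 53.9 CPM in replicates 1, 3 and 4. Ndufs7, a core iron-sulphur subunit, was 2.13-fold lower and Ndufb5 of the membrane arm 2.12-fold lower. At the other end lay Ndufaf2, a late-acting factor related to Ndufa12, at 2.31 CPM against 2.34, 2.71 and 2.24 CPM. Next came Ndufaf8, the partner of Ndufaf5, and then Ndufa7, 1.20-fold lower.

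The same library was at the edge for other genes, picked after their values were seen. The atrophy ligase Fbxo32 was at 758 CPM there against 157 to 233 CPM in the other 15 libraries. Its relative Trim63 was at 277 CPM against 65.1 to 149.5 CPM, and Musk, the kinase of the neuromuscular junction, at 71.1 against 6.46 to 18.2 CPM. Its fast-fibre marker sum of 54607 CPM was below that of every other library (65392 to 86745 CPM), and its TMM factor of 1.28 was the highest of the 16. The part of these in the low subunit levels was not tested.

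**Figure D2:**
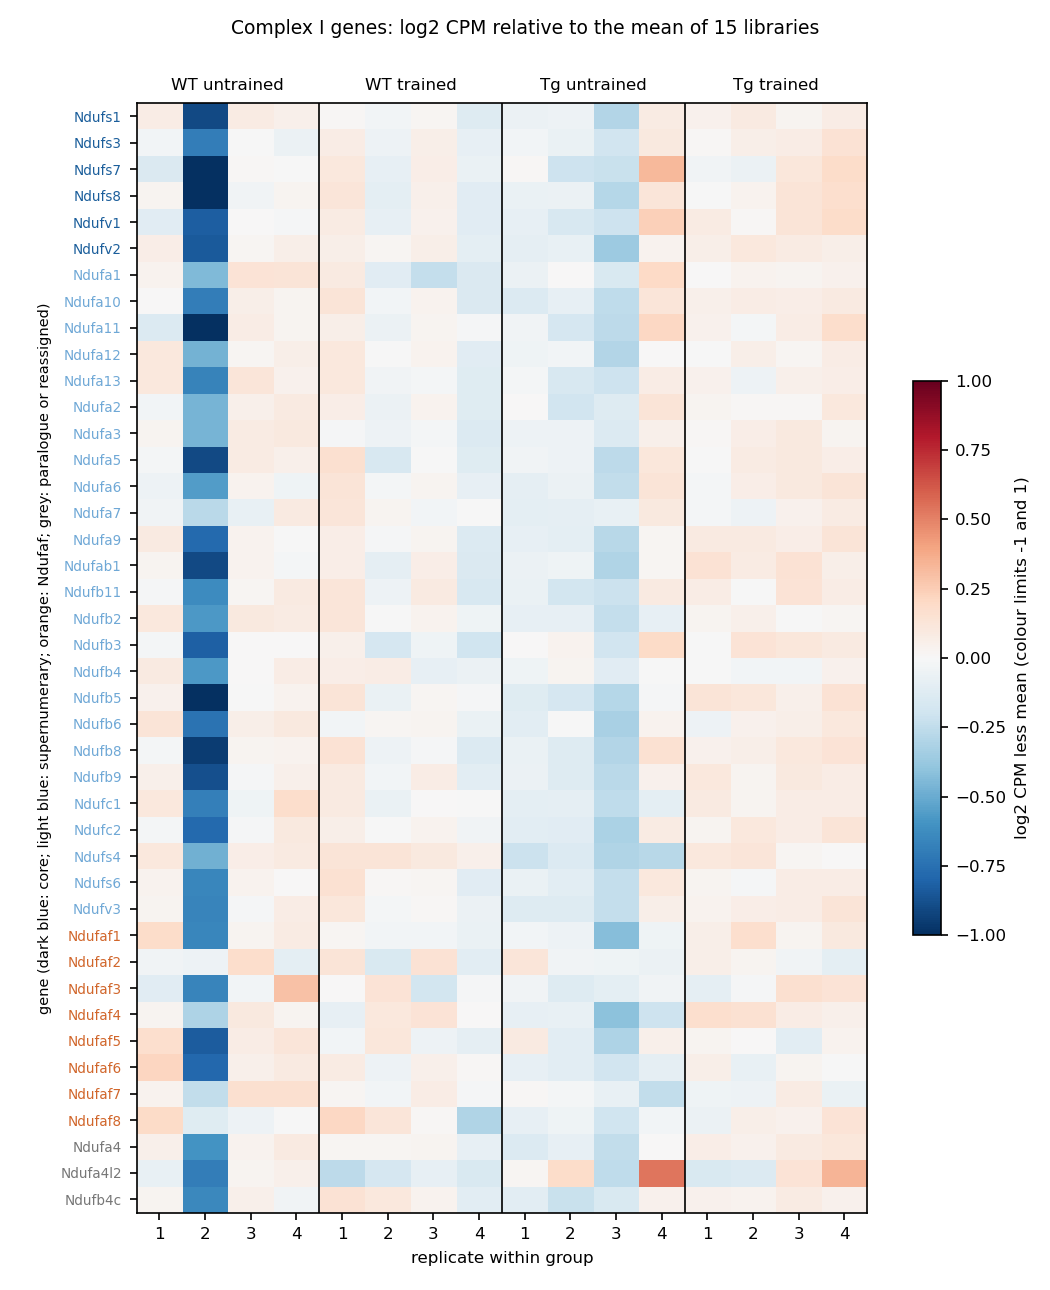
Log2 CPM of 42 tested genes (rows) in the 16 libraries (columns, by group and replicate), less each gene's mean over the 15 libraries other than WT untrained replicate 2; colours are limited to -1 and 1. The column of WT untrained replicate 2 is low from top to bottom apart from a few Ndufaf genes, and Tg untrained replicate 3 is the next lowest.

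To set classes side by side, each library was given the median, over the genes of a class, of log2 CPM less the gene's mean over the 15 libraries other than WT untrained replicate 2. For the subunits this class level was 0.024, -0.70, 0.023 and 0.047 in WT untrained replicates 1 to 4. After training the WT values were 0.098, -0.031, 0.029 and -0.11. The Tg values were -0.067, -0.092, -0.25 and 0.083 without training and 0.032, 0.055, 0.075 and 0.085 with it. The Tg trained libraries lay closest together and WT untrained spread most; without replicate 2 the remaining WT untrained libraries were within 0.023 to 0.047. For the Ndufaf factors the levels were 0.10, -0.48, 0.061 and 0.088 in untrained WT libraries and 0.018, 0.041, 0.034 and -0.041 in trained ones. The Tg libraries were at -0.030, -0.063, -0.20 and -0.048 untrained, and at 0.041, 0.015, 0.037 and 0.044 trained. All 4 Tg untrained libraries were thus below all 4 Tg trained libraries for the Ndufaf factors, while for the subunits Tg untrained replicate 4 overlapped the Tg trained range. The Ndufaf level less the subunit level was largest in WT untrained replicate 2 (0.22) and lowest in Tg untrained replicate 4 (-0.13). The other 14 libraries lay between -0.080 and 0.077.

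**Figure D3:**
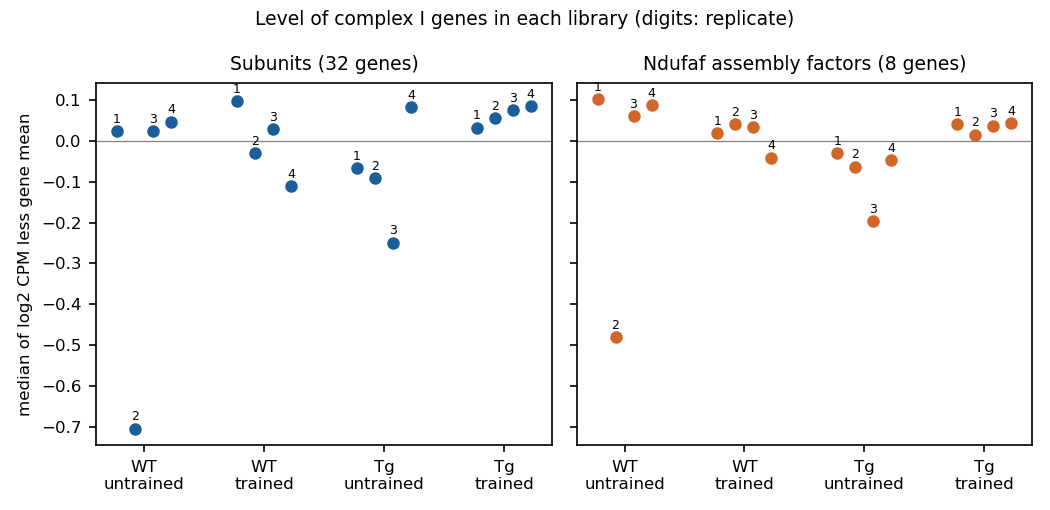
Class level of the 32 subunits (left) and of the 8 Ndufaf assembly factors (right) in each library, as the median of log2 CPM less the gene's 15-library mean; points are libraries, numbered by replicate within the 4 groups. WT untrained replicate 2 is at -0.70 for subunits and -0.48 for Ndufaf factors, and Tg untrained replicate 3 at -0.25 and -0.20.

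No complex I gene passed the test for training in WT muscle. edgeR's quasi-likelihood test called 0 of the 43 at an adjusted p under 0.05, where 0.143% of all genes were called, and 0 of the 43 had an unadjusted p under 0.05 (9.55% of all genes). DESeq2 (0.389% of all genes called) and limma-voom (0.109%) also called 0 of the 43. The median log2 fold change, trained against untrained, was 0.13 over the subunits, with 30 of 32 positive, 0.043 over the Ndufaf factors and 0.005 over all genes. Ndufs3, a core subunit, was at 85.2, 54.0, 86.6 and 83.6 CPM in the WT untrained libraries and at 91.5, 83.8, 90.5 and 82.3 CPM after training. The groups overlapped, and replicate 2 was the only untrained library below all the trained ones; the log2 fold change was 0.17 (SE 0.11, adjusted p = 0.66 by edgeR), and 0.027 (SE 0.061, adjusted p = 0.93) without that library. Without WT untrained replicate 2 the subunit median became -0.031 (8 of 32 positive) and the Ndufaf median -0.087 (0 of 8 positive), so the direction of both classes in WT turned on that library. Across all 16 libraries no gene had separate groups (2.36% of all genes were separate and higher, 2.03% lower). Without that library 6 of the 43 were separate and lower in trained WT (3.97% of all genes): Ndufa3, Ndufa4, Ndufa4l2, Ndufaf1, Ndufb6 and Ndufs1. None was higher (0, against 4.76% of all genes). The library was left out because these genes were low in it, so the shares of all genes are not a like comparison.

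In Tg muscle, training again gave 0 of 43 calls by edgeR (0% of all genes), DESeq2 (0.72%) and limma-voom (0%). At an unadjusted p under 0.05 by edgeR were 2 genes, Ndufs4 and Ndufaf4 (11.1% of all genes). That fit shares its estimate of spread with WT untrained replicate 2. The median SD of log2 CPM within groups was 0.204 with that library and 0.094 without it. Among the 8 Tg libraries alone, further members had an unadjusted p under 0.05 by edgeR, such as Ndufb5 (0.0017), Ndufc1 (0.0028) and Ndufa9 (0.0095). The share of all genes at that level is not given for those 8. All 32 subunits had a positive log2 fold change, with a median of 0.14, as had 7 of 8 Ndufaf factors, with a median of 0.12, against 0.002 over all genes. In 12 of the 43 (27.9%) every trained library exceeded every untrained one, where 4.65% of all genes did; in 0 of the 43 was it the reverse, where 4.53% of all genes were. Among the 12 were the core subunit Ndufv2, the supernumerary subunits Ndufa9, Ndufab1, Ndufb2, Ndufb5, Ndufc1 and Ndufs4, the factors Ndufaf1, Ndufaf4 and Ndufaf6, and Ndufa4. Genes of 1 library move together, so these counts are not independent of each other. Tg untrained replicate 3 added to them: without it the subunit median was 0.070, with 28 of 32 positive. That library, and replicate 2, are the Tg untrained ones above 10 CPM of Myh7, against at most 2.499 CPM in Tg trained. The summed level of 8 adipocyte markers was 111 to 272 CPM in Tg untrained and 76.2 to 103 CPM in Tg trained, and 124 to 259 against 88.6 to 108 CPM in WT. Their part in these differences was not tested.

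Ndufs4 is a supernumerary subunit of the NADH-oxidising arm, and its loss in mice is a known model of Leigh syndrome. It lies on chromosome 13 (mm10, 114287795 to 114388258, minus strand). Its levels were 62.01, 65.2, 58.4 and 59.4 CPM in Tg untrained and 77.4, 78.3, 72.8 and 72.1 CPM in Tg trained. The WT libraries held 77.2, 51.4, 75.1 and 76.4 CPM untrained and 78.5, 78.5, 77.0 and 74.6 CPM trained. All 4 Tg untrained libraries, and WT untrained replicate 2, were low: the other 11 libraries lay between 72.1 and 78.5 CPM. Among the tested genes Ndufs4 also had the smallest spread within groups when that WT library was left out (SD of log2 CPM 0.053, against a median of 0.094 over the 43). With all 16 libraries the log2 fold change of training in Tg was 0.30 (SE 0.098, adjusted p = 0.29 by edgeR), and that of Tg against WT without training was -0.19 (SE 0.098, adjusted p = 0.35).

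Without WT untrained replicate 2, Ndufs4 passed the test in 4 comparisons, and it was the only 1 of the 43 called under any alternative tried. Training in Tg then raised it by 0.29 on the log2 scale (SE 0.044, adjusted p = 0.031 by edgeR; 0.532% of all genes called). Tg against WT without training was -0.32 (SE 0.048, adjusted p = 0.0054 by edgeR, 0.698% called). The difference between the 2 training responses was 0.28, which did not pass (SE 0.065, adjusted p = 0.21 by edgeR). Both use untrained WT, where the library left out was itself low in Ndufs4. Among the 8 Tg libraries alone, which do not include that library, the training difference was 0.29 (SE 0.052, adjusted p = 0.037 by edgeR; 0.703% of all genes called). Training averaged over genotypes (0.15, adjusted p = 0.035; 1.25% of all genes called) and Tg averaged over training states (-0.18, adjusted p = 0.015; 2.01%) were the other calls by edgeR. The same 4 comparisons called Ndufs4 when the 3 libraries high in Alb were left out (0.595%, 0.589%, 3.34% and 1.23% of all genes called). Without the 4 libraries high in Myh7 it was called in Tg against WT untrained (0.183%) and in Tg averaged over training states (0.8%). Both sets of libraries include WT untrained replicate 2, so these calls are not independent of those made without it. After training, Tg and WT differed by -0.038 (SE 0.098, adjusted p = 0.97). Tg untrained replicates 1 and 4, with Alb and Myh7 both under 10 CPM, were at 62.01 and 59.4 CPM of Ndufs4. The part of what Alb or Myh7 marks in these levels was not tested.

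Ndufaf4, which acts with Ndufaf3 on the ubiquinone-binding module, was likewise lowest on average in Tg untrained (chromosome 4, mm10, 24898083 to 24905001, plus strand). It was at 21.7, 21.8, 17.3 and 19.9 CPM in Tg untrained and 25.8, 25.5, 24.2 and 23.8 CPM in Tg trained. The WT libraries were at 23.4, 18.5, 24.6 and 23.4 CPM untrained and at 21.7, 24.8, 25.3 and 23.0 CPM trained. The Tg groups did not overlap, while the WT groups did, and the lowest WT trained library was level with the highest of Tg untrained. The training difference in Tg was 0.30 (SE 0.089, adjusted p = 0.24 by edgeR), and it did not pass without WT untrained replicate 2 either (0.30, SE 0.069, adjusted p = 0.062). Its partner Ndufaf3 ranged from 5.28 to 5.64 CPM in Tg untrained and from 5.43 to 6.45 CPM in Tg trained, with overlap.

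The stretches before the start of these 2 genes are shown because they had the smallest unadjusted p by edgeR for training in Tg. They are 2 of the 12 genes with non-overlapping Tg groups. They come from the RefSeq promoter table (GRCm38.p6). The search covered 250 bases before each RefSeq start, on both strands, for AAGGTCA (the core of the estrogen-related receptor site), the palindromic NRF1 site, CCGGAAG (GABP), AAGATGGC (YY1) and CACGTG (E-box). Capitals mark a match. For Ndufs4 only the 86 bases that also precede its GENCODE gene model are printed, at chr13:114388259-114388344, minus strand; for Ndufaf4 the whole window, at chr4:24897833-24898082, plus strand:
Ndufs4: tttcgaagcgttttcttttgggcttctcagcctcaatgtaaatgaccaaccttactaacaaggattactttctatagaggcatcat
Ndufaf4: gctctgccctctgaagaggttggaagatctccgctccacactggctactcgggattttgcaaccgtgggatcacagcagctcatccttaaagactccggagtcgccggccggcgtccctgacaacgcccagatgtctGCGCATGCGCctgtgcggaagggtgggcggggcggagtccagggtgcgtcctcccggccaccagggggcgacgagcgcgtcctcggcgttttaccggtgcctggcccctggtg
The Ndufs4 window held none of the 5 motifs and had a GC content of 42.0%; that of Ndufaf4 held 1, the NRF1 sequence GCGCATGCGC, and had 66.4% GC. In the Ndufs4 window 164 of the 250 bases lie within its GENCODE gene model, against 0 for Ndufaf4. The 2 windows are therefore not alike in position. Of the 45 genes, 36 had a promoter entry, with 38 windows. The NRF1 motif was in 15.8% of the 38 windows against 3.74% of all 32851 windows, in the genes Ndufa5, Ndufa11, Ndufaf4, Ndufb4 and Ndufs6. The motifs of estrogen-related receptors (5.26% against 4.08%), GABP (10.5% against 6.91%) and the E-box (7.90% against 6.02%) were nearer to their shares in all windows, and AAGATGGC was in 0 of the 38 windows against 1.57% of all. Of the 5 genes with the NRF1 motif, only Ndufaf4 had separate Tg groups, where 27.9% of the 43 tested genes had them. A match describes the letters of the window and not a binding site.

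**Figure D4:**
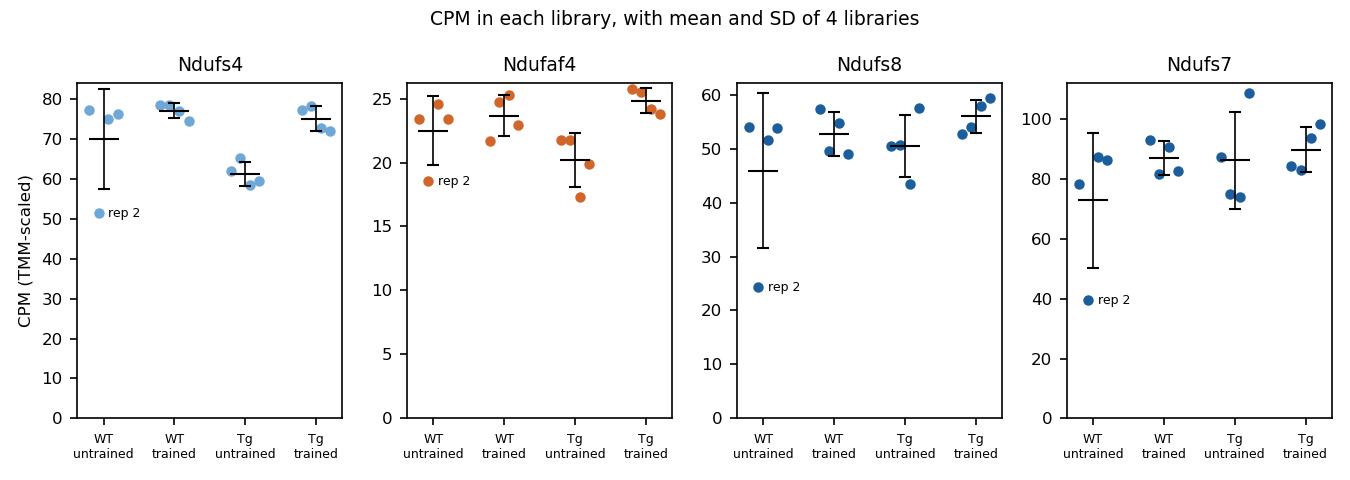
CPM of Ndufs4, Ndufaf4, Ndufs8 and Ndufs7 in each library (points) by group, with the mean (bar) and SD (whiskers) of 4 libraries; each axis starts at 0. Tg untrained Ndufs4 (58.4 to 65.2 CPM) lies below Tg trained (72.1 to 78.3 CPM), and WT untrained replicate 2 (rep 2) is the lowest WT library in each panel.

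The core subunits Ndufs8 and Ndufs7 show how others varied. Ndufs8 was at 50.6, 50.7, 43.5 and 57.5 CPM in untrained Tg muscle and at 52.7, 54.1, 57.9 and 59.4 CPM after training. The groups overlapped through untrained replicate 4. Ndufs7 was at 87.4, 74.9, 74.2 and 108.7 CPM in Tg untrained and at 84.3, 82.9, 93.8 and 98.5 CPM in Tg trained, so replicate 4 of the untrained group was above every trained library. It had the widest spread within groups of the 32 subunits (SD of log2 CPM 0.16 without WT untrained replicate 2).

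No complex I gene passed the test of Tg against WT without training when all libraries were used. edgeR called 0 of 43 (0.743% of all genes), 0 had an unadjusted p under 0.05 (16.2% of all genes), and DESeq2 (2.53%) and limma-voom (0.606%) called 0. The classes differed in sign: the median log2 fold change of Tg against WT was 0.037 over the subunits (26 of 32 positive) and -0.065 over the Ndufaf factors (2 of 8 positive), against 0.004 over all genes. Without WT untrained replicate 2 both medians were negative, -0.11 with 29 of 32 subunits negative and -0.19 with 8 of 8 Ndufaf factors negative. In that setting 12 of the 32 subunits and 5 of the 8 Ndufaf factors were lower at an unadjusted p under 0.05 (15.3% of all genes in either direction), and Ndufs4 alone passed the adjusted threshold. With all libraries 0 of 43 genes had separate groups (4.33% of all genes were separate and higher, 4.16% lower). Without that library 11 were separate and lower (7.38% of all genes), of them 6 subunits and 4 Ndufaf factors, and 0 were higher (6.8%). Among the 6 subunits was Ndufa12. With the counts of the left-out row Ndufa12-ps added, an alternative chosen after seeing the data, its groups overlapped. Ndufa12 was then at 69.4 to 89.3 CPM in Tg untrained and at 87.1 to 90.02 CPM in WT untrained without replicate 2. That library was left out because these genes were low in it, so a move towards lower in Tg was built in. The shares of all genes are therefore not a like comparison for the counts without it. Tg untrained replicate 3 bears on this comparison from the other side, since without it the subunit median was 0.089 and the Ndufaf median -0.006.

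The supernumerary subunit Ndufb3 illustrates the opposite sign. It was at 33.5, 19.3, 34.0 and 34.0 CPM in WT untrained and at 34.0, 34.7, 29.7 and 38.8 CPM in Tg untrained. Replicate 2 of WT untrained was the lowest and the other libraries overlapped. Its log2 fold change was 0.18 (SE 0.14, adjusted p = 0.56 by edgeR), and 0.018 without that library. Ndufaf7, an arginine methyltransferase, was at 6.39, 5.26, 6.98 and 6.99 CPM in WT untrained and 6.32, 6.19, 5.94 and 5.29 CPM in Tg untrained, a log2 difference of -0.11 (SE 0.086, adjusted p = 0.58 by edgeR). Leaving out WT untrained replicate 2 gave -0.19 (SE 0.073, adjusted p = 0.21). The groups overlapped only through WT untrained replicate 2.

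**Figure D5:**
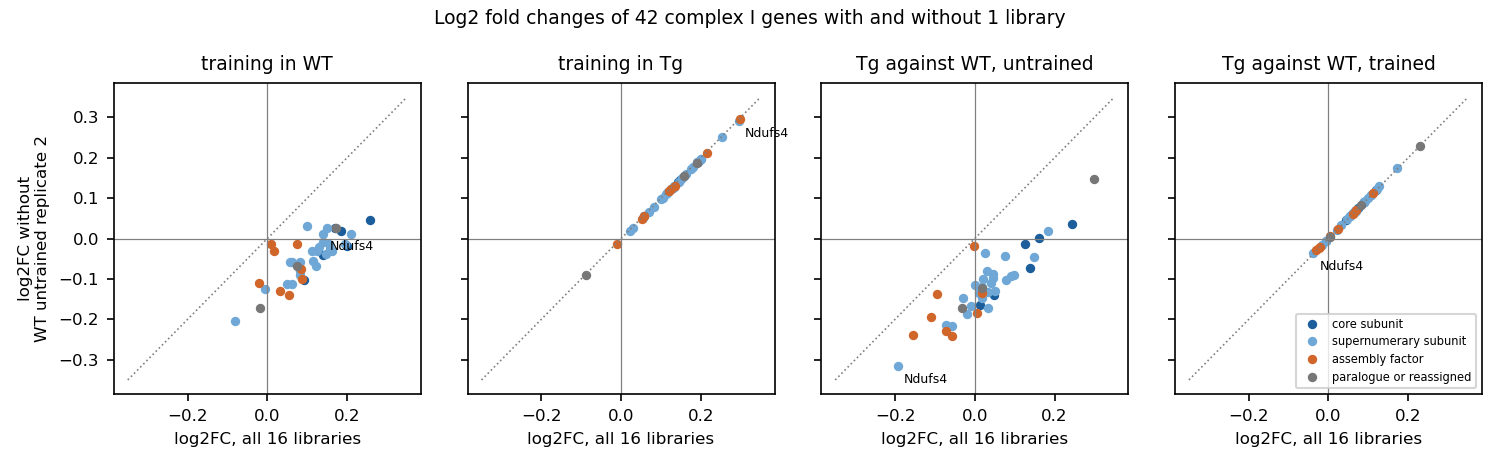
Log2 fold change of 42 tested genes (points, coloured by class) with all 16 libraries (x axis) and without WT untrained replicate 2 (y axis) in 4 comparisons; the dotted line marks equal values. In the panels for training in WT and for Tg against WT untrained, which use that library, the points lie below the line and the subunit medians move from 0.13 to -0.031 and from 0.037 to -0.11; in the other panels they lie on it.

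No complex I gene passed the test of Tg against WT after training. edgeR called 0 of 43 (0.0114% of all genes), 0 had an unadjusted p under 0.05 (7.98% of all genes), and DESeq2 (0.309%) and limma-voom (0.0114%) called 0. The median log2 fold change was 0.066 over the subunits (28 of 32 positive), 0.014 over the Ndufaf factors (5 of 8 positive) and -0.003 over all genes. Neither group holds the library that stood apart, but that library entered the shared estimate of spread behind these p-values. Among the 8 trained libraries alone, some members had an unadjusted p under 0.05 by edgeR, such as Ndufb3 (0.014) and Ndufa3 (0.028). None was called there (adjusted p = 0.33 and 0.38 by edgeR for these). The share of all genes at that unadjusted level is not given for those 8 libraries. In 5 of the 43 genes every Tg trained library exceeded every WT trained one, where 2.94% of all genes did; 0 were separate and lower (2.76%). The 5 were Ndufa3, Ndufa9, Ndufs1, Ndufaf1 and Ndufa4. Ndufaf1 was at 19.4, 18.8, 18.8 and 18.3 CPM in WT trained and at 20.0, 21.5, 19.5 and 20.5 CPM in Tg trained, and the margin between the groups was smaller than the spread within either. Its log2 difference was 0.11 (SE 0.13, adjusted p = 0.91 by edgeR). With the 8 trained libraries alone it was 0.11 (SE 0.045, unadjusted p = 0.029, adjusted p = 0.38 by edgeR).

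Whether training acted differently in the 2 genotypes was tested as a difference of the training responses, Tg less WT. edgeR called 0 of 43 (0.0515% of all genes), 0 had an unadjusted p under 0.05 (6.03% of all genes), and DESeq2 (0.2%) and limma-voom (0.0515%) called 0. The subunit median was 0.033 and the Ndufaf median 0.061, against -0.009 over all genes. Without WT untrained replicate 2 the subunit median was 0.19 with 32 of 32 positive, and the Ndufaf median 0.19 with 7 of 8 positive. In that setting 14 of the 32 subunits had an unadjusted p under 0.05 (9.06% of all genes) and none passed the adjusted threshold (lowest adjusted p = 0.21, for Ndufs4, by edgeR; 0.0572% of all genes passed). WT untrained replicate 2 was left out because these genes were low in it, so a rise of this difference was built in. The shares of all genes are therefore not a like comparison for the counts without it. Without Tg untrained replicate 3 the subunit median was -0.027, so the sign of this difference rested on single libraries.

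Averaged over genotypes, training gave 0 of 43 calls by edgeR (0.457% of all genes), DESeq2 (2.1%) and limma-voom (0.332%), with Ndufs4 and Ndufaf4 again at an unadjusted p under 0.05 (14.4% of all genes). The medians were 0.14 over the subunits and 0.090 over the Ndufaf factors, and 0.061 and 0.017 without WT untrained replicate 2. With all libraries the largest value was that of Ndufb5 (0.22, SE 0.12, adjusted p = 0.40 by edgeR). Without that library it was 0.12 (SE 0.040, adjusted p = 0.16), below those of Ndufs4 (0.15) and Ndufaf4 (0.14). Averaged over training states, the transgene gave 0 of 43 calls by edgeR (1.12% of all genes), DESeq2 (3.65%) and limma-voom (1.05%) and 0 genes at an unadjusted p under 0.05 (17.2%). The medians were 0.054 over the subunits and -0.024 over the Ndufaf factors, and both were negative (-0.026 and -0.071) without that library.

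The genes counted apart from the subunits did not pass the test in any of the 7 comparisons. Ndufa4l2 was at 2.18, 1.42, 2.33 and 2.38 CPM in WT untrained and at 2.33, 2.60, 1.93 and 3.33 CPM in Tg untrained. The groups overlapped, and with all libraries the Tg difference was the largest positive one of the 43 (0.30, SE 0.18, adjusted p = 0.44 by edgeR). Without WT untrained replicate 2 it was 0.15 (SE 0.16, adjusted p = 0.73). Over those 15 libraries Ndufa4l2 had the widest spread within groups of the 43 (SD of log2 CPM 0.22). Ndufa4 was at 137, 142, 127 and 152 CPM in Tg untrained and at 158, 155, 160 and 163 CPM in Tg trained, without overlap. Adding the counts of the processed copies to their parents, an alternative chosen after seeing the data, put Ndufb4 at 66.8 to 74.8 CPM in Tg untrained and 74.2 to 75.9 CPM in Tg trained; those groups overlapped. The summed gene gave a training difference in Tg of 0.11 (SE 0.11, adjusted p = 0.76 by edgeR).

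The rest of the complex I pathway is given for context. The 7 subunits encoded by mitochondrial DNA (mt-Nd1 to mt-Nd6 and mt-Nd4l) form the proton-pumping membrane core. All 7 had a positive training difference in Tg, with a median of 0.43, 4 at an unadjusted p under 0.05 (11.1% of all genes) and 0 called by edgeR (0% of all genes). Without Tg untrained replicate 3 the median was 0.31, with 6 of 7 positive and 1 at an unadjusted p under 0.05. In WT all 7 were positive as well, with a median of 0.21, 1 at an unadjusted p under 0.05 (mt-Nd4l, 0.52; 9.55% of all genes) and 0 called by edgeR (0.143%). Leaving out WT untrained replicate 2 gave a WT median of 0.12, with 5 of 7 positive. In Tg, mt-Nd6 had the smallest p of the 7: it was at 370, 356, 264 and 354 CPM in Tg untrained and 447, 559, 440 and 458 CPM in Tg trained, without overlap (log2 difference 0.50, SE 0.15, adjusted p = 0.24 by edgeR). Of 11 tested assembly factors with other names, among them Acad9, Ecsit, Timmdc1 and Foxred1, 0 passed in any of the 7 comparisons, and the median training difference in Tg was 0.086. The 4 left-out relay substrates had a median training difference in Tg of 0.20 with 0 called, and in WT untrained replicate 2 each had its lowest level of 16 libraries. 

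Several gene models share bases with a neighbour, and whether the counting used strand was not given in the sources used here. The antisense gene B230220B15Rik covers 65.6% of the exon bases of Ndufaf2, Smim27 39.0% of those of Ndufb6, and Tssk6 30.0% of those of Ndufa13. Gm49356 covers 19.5% of Ndufb9 on the same strand. The levels of these 4 genes are uncertain for that reason.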

How the data were processed

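The deposited table holds RSEM expected counts per gene made by the authors. Per the submitters' processing notes, reads were aligned with STAR 2.7.8a to mm10 and counted with RSEM 1.3.2; the gene annotation was not given in the sources used here. Of the values 12.5% were not whole, and all were rounded to whole counts before testing. Of 55487 identifiers, 54349 matched GENCODE M21 with their version, and that release gave positions, biotypes and transcript lengths.

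Genes were filtered with filterByExpr, scaled by TMM and tested over all 16 libraries with edgeR 4.0.16 (quasi-likelihood test, R 4.3.3), with Benjamini-Hochberg adjustment over the 17490 tested genes and a threshold of 0.05. The biological coefficient of variation was 14.1%. DESeq2 1.42.0, limma-voom 3.58.1, other filters and scalings, a replicate block and leaving out libraries were alternatives. CPM are counts scaled to a common total with TMM factors. The script was tested on simulated data. No 2 libraries of a group agreed within sampling noise (lowest chi-square per degree of freedom 7.08). At library totals of at least 40888325 counts, counting error is small beside the spread between libraries for most members. Ndufaf2 and Ndufa4l2, at about 2.4 and 2.27 CPM, have the fewest counts. Ndufaf3 (194 to 351 counts per library), Ndufaf6 (250 to 445), Ndufaf7 (251 to 347) and Ndufaf8 (165 to 266) are also low in counts. Counting error is not small beside the spread of these Ndufaf factors.

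The members and gene lists were chosen with earlier results of these data known. Genes named in a comparison were the 3 subunits and 2 assembly factors with the smallest p, the largest log2 fold change in each direction, the paralogues, and genes with non-overlapping groups, of which the text gives a selection; other names were chosen after their values were seen. The values of 1 member are not reported here.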

Additional observations from a re-analysis of the deposited data

Results flagged for a closer look

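In groups of 4 libraries, a gap between the highest or lowest library and the next that exceeds Dixon's critical share of the whole range was looked for. The 56 groups examined covered the class levels of subunits and Ndufaf factors and only some of the named genes. Ndufs8 and Ndufa4, for example, were not among them. Chance gives about 1 in 20. Among the values examined, the untrained WT group had 6 of this kind, all in replicate 2: the class level of the subunits (-0.704), that of the Ndufaf factors (-0.48), Ndufs3 (53.99 CPM), Ndufs4 (51.35 CPM), Ndufb3 (19.25 CPM) and Ndufb5 (54.96 CPM). Each of these was far below the other 3 libraries. The 6 come from 1 library whose genes move together, and the subunit level includes the subunits named. They are therefore not independent, and the rate of 1 in 20 cannot be set against their number.

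In untrained Tg, replicate 3 was far below the other libraries for Ndufc1, a small membrane-arm subunit (38.99 CPM), and for Ndufaf1 (14.24 CPM). In trained Tg, replicate 3 was above the others for Ndufaf7 (6.611 CPM). The cause of these values was not tested.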

How the results depend on the processing

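The settings tried were RLE size factors, no low-count filter and a filter at 1 CPM, a robust dispersion, DESeq2, limma-voom, each library left out in turn, the 8 libraries of a pair alone, libraries above 10 CPM of Alb or of Myh7 left out, mitochondrial genes taken out before scaling, a replicate block, and processed copies added to their parents (chosen after seeing the data). The count of called genes was 0 in 182 alternative results and 1 in the other 11, Ndufs4 each time: training in Tg without WT untrained replicate 2, with the 8 Tg libraries alone and without the Alb libraries; Tg against WT untrained, and Tg averaged over training states, without replicate 2, without the Alb libraries and without the Myh7 libraries; training averaged over genotypes without replicate 2 and without the Alb libraries. Of the settings with a call, all but the 8 Tg libraries alone leave out WT untrained replicate 2. Leaving out 1 library at a time gave 0 to 1 calls in these 4 comparisons and 0 in the other 3. The cause was not tested.

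Sign changes of single genes came from leaving out libraries, with WT untrained replicate 2 among them each time. Ndufaf4 for training in WT (-0.014 to 0.12 with 1 library left out) was -0.014 without replicate 2, -0.001 without the Alb libraries and -0.046 without the Myh7 libraries; Ndufaf6 (-0.1 to 0.194) was -0.1, -0.096 and -0.108 in the same settings. The difference of training responses of Ndufs7 (-0.296 to 0.009) was 0.009 without replicate 2.

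With 1 library left out, the subunit median ranged from -0.031 to 0.184 for training in WT, 0.07 to 0.195 for training in Tg, -0.109 to 0.097 for Tg against WT untrained, 0.038 to 0.095 trained and -0.03 to 0.188 for the difference; it was 0.061 to 0.171 for training and -0.026 to 0.087 for the transgene averaged. The Ndufaf median ranged over -0.087 to 0.088, 0.09 to 0.135, -0.189 to -0.002, -0.024 to 0.054 and 0.023 to 0.193, and 0.017 to 0.11 and -0.071 to 0.005 averaged. The log2 difference of Ndufs4 stayed within 0.265 to 0.326 for training in Tg and within -0.316 to -0.142 for Tg against WT untrained.

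Whether the replicate numbers in the labels pair the libraries is not known. Same-numbered libraries correlated at -0.153 to 0.176 (mean 0.014, 24 pairs), against a mean of -0.004 for other-numbered ones. Of 16 libraries, 7 were closest to those of their own number. Weak correlations over all genes cannot show that libraries are unpaired. With the replicate block 0 of 43 genes were called in each comparison.

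Over all genes the number called moved by more than 1.5 times. DESeq2 called 68 (training in WT), 126 (training in Tg), 442 (Tg against WT untrained), 54 (trained), 35 (difference), 367 (training averaged) and 639 (transgene averaged), where edgeR called 25, 0, 130, 2, 9, 80 and 196.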
